A study of Homo sapiens with 6 samples.

Results

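Control cultures of the human malignant mesothelioma cell line MSTO-211H (MSTO cells) were described by the genes that they expressed at baseline and by how far 3 biological replicates of that state differed. The members were the 3 arrays whose labels call the cells untreated, of 6 arrays in all. The other 3 arrays came from MSTO cells given an inhibitor of miR-503 (anti-miR-503) for 48 h, and they enter below only as a second set of replicates. RNA from detached cells, 100 ng per array, was hybridised to a Clariom S array, which reports 1 log2 signal per transcript. The labels describe the controls both as untreated and as given vehicle, 0.1% DMSO, for the same 48 h, whereas the study's methods also name a negative control inhibitor. What the control cultures received is therefore not settled. All 3 are cultures of 1 cell line, so the spread between them is the spread of cultures and arrays and not of tumours.

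A gene was called detected when its log2 signal exceeded, on all 3 control arrays, the signal that 95% of the 612 negative control rows of that array stayed below. These limits were 7.83, 8.09 and 7.77 on control replicates 1, 2 and 3, and in every sentence below that gives 3 control values they follow this order. Of 17687 named genes, 7225 were detected (40.8%), 8372 exceeded the limit on at least 1 array (47.3%) and 9315 on none. Signals of different genes depend on their probes, so a level is set only against the limit or against the same gene on another array. A gene under the limit could not be told apart from the negative rows, which does not show that it was silent. Of the 2197 positive control rows of the array, 93.0% exceeded the limit on all 3 control arrays. The call depended on the percentile, since only 2806 genes passed at the 99th. The genes closest to the limit were SAAL1 (8.38, 8.09 and 7.92), CYS1 (7.83, 8.69 and 8.48) and PIP4P1 (8.04, 8.09 and 8.42) just inside it. Just outside it were SLC33A1 (8.43, 8.09 and 8.54), ZBTB8A (7.95, 8.09 and 8.56) and ZNF449 (7.83, 8.15 and 7.77), so the call parted genes whose signals were all but equal.

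Mesothelial cells line the pleural, peritoneal and pericardial cavities. They arise from mesoderm yet form an epithelium, and so carry keratins together with vimentin and N-cadherin. Malignant mesothelioma keeps part of this programme, loses parts of it as it takes on a spindle-shaped form, and frequently loses genes that restrain the cell cycle and the Hippo pathway, which holds back the growth-promoting factor YAP.

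Control replicate 3 stood apart from the other 2 control arrays. Over the 7225 detected genes, Pearson's r across genes was 0.964 between replicates 1 and 2, 0.922 between 1 and 3 and 0.936 between 2 and 3. The array closest to control replicate 3 was anti-miR-503 replicate 1, with r = 0.978, against 0.976 between anti-miR-503 replicates 2 and 3. Genes share probes, arrays and normalization, so these coefficients are descriptions. The groups were taken from the labels as given. Anti-miR-503 replicate 1 had r = 0.944, 0.962 and 0.978 with control replicates 1, 2 and 3. With anti-miR-503 replicates 2 and 3 its r was lower, 0.932 and 0.927. The labels of control replicate 3 and anti-miR-503 replicate 1 are open to doubt, and whether cultures or RNA were exchanged or shared was not tested. Overall counts and some lists are also given without control replicate 3. Results for the other lists are given only with control replicate 3 included. The array signal of the 4 poly-A RNAs that are added to a sample before labelling was also highest there among the controls, for example 8.11, 8.53 and 10.40 for dap and 6.47, 6.91 and 8.95 for thr. The part of these differences in the results below was not tested.

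The mesothelial markers were detected in part. Of 22 measured members of the mesothelial and mesothelioma list, 8 were detected (36.4%), near the 40.8% of all named genes. Mesothelin (MSLN), a surface glycoprotein of mesothelial cells, gave 11.77, 10.86 and 12.49, a mean of 11.71 ± 0.82 (SD, n = 3). It was above the limit on every array and varied by 1.63 between cultures, with its lowest signal on replicate 2. Calretinin (CALB2), the calcium-binding protein used to diagnose mesothelioma, gave 9.85, 10.22 and 9.75. The basonuclin gene BNC1, a transcription factor of mesothelium and keratinocytes, gave 10.42, 9.94 and 10.13. For both of them the 3 cultures lay within 0.47.

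Other markers of the same cells were under the limit on all 3 arrays. WT1, the Wilms tumour transcription factor, gave 6.88, 6.96 and 6.89, and podoplanin (PDPN), a mucin-like surface protein, gave 3.11, 3.34 and 3.46. The uroplakin UPK1B and keratin 5 (KRT5) were also under the limit, with highest signals of 4.70 and 4.23. The control cultures thus carried mesothelin, calretinin and BNC1 without a measurable signal for WT1, podoplanin or keratin 5. Uroplakin UPK3B gave 8.46, 8.44 and 6.94, and so passed the limit on replicates 1 and 2 and not on replicate 3.

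The detected remainder of the list were CDH2, HEG1, EFEMP1, SDC1 and TM4SF1. HEG1, a mucin-like membrane protein used as a mesothelioma marker, gave 11.04, 11.47 and 12.39. TM4SF1, a tetraspanin-like surface protein, had the widest range of the detected members, with 13.82, 14.13 and 12.45. Wider differences were found among members that passed the limit on some arrays only. The secreted phosphoprotein osteopontin (SPP1) gave 5.94, 12.02 and 9.40, and the lectin intelectin-1 (ITLN1) gave 9.88, 7.59 and 12.10. Complement C3 was above the limit on replicate 3 only, with 5.34, 6.11 and 9.29. Replicate 3 was highest for ITLN1 and C3, and replicate 2 for SPP1.

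**Figure D1:**
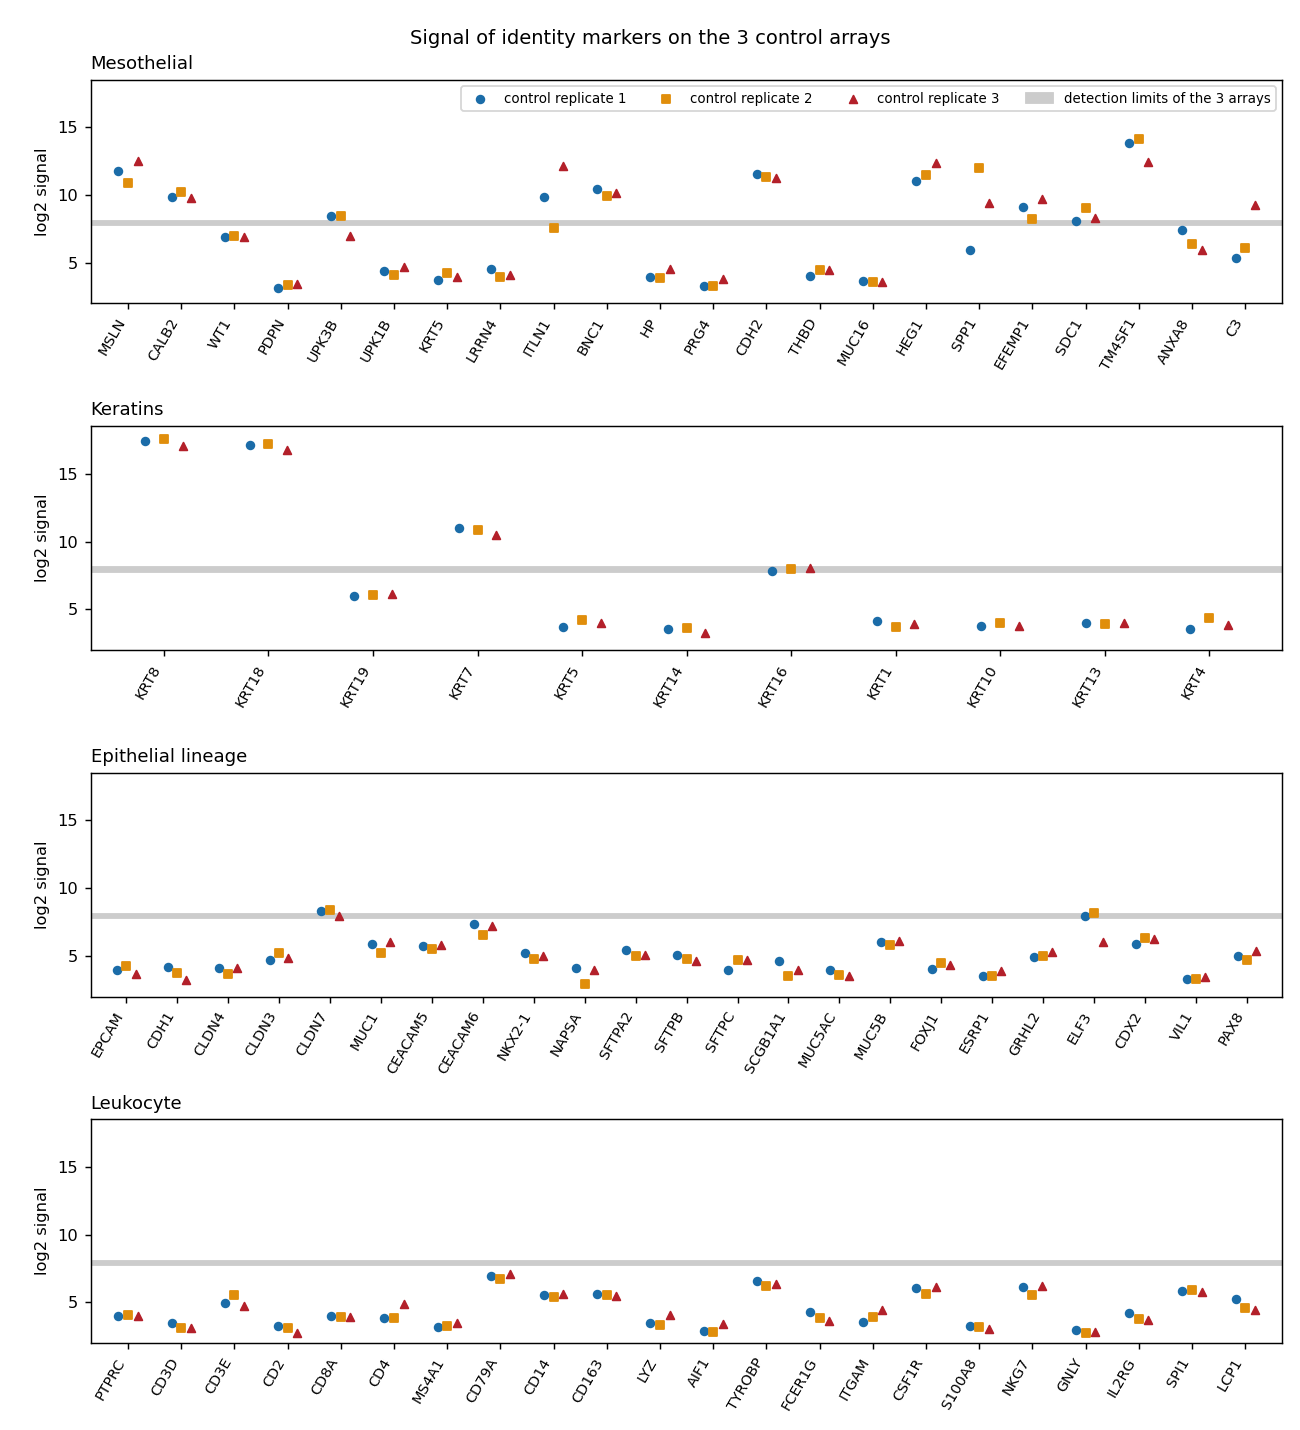
Log2 signal (vertical axis) of each measured member of 4 identity lists (horizontal axis) on the 3 control arrays, with the detection limits of 7.77 to 8.09 as a grey band. KRT8, KRT18, MSLN and TM4SF1 lie above the band on every array, and all 22 leukocyte markers lie under it.

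Simple epithelial keratins were expressed with few of the other epithelial markers measured. Of 11 keratins measured, 3 were detected (27.3%, against 40.8% of all named genes). KRT8 gave 17.41, 17.54 and 17.02, KRT18, with which it pairs in simple epithelia, gave 17.11, 17.23 and 16.77, and KRT7 gave 10.99, 10.84 and 10.50. Each was lowest on replicate 3, and none varied by more than 0.52. KRT19, in contrast, was under the limit with 5.99, 6.06 and 6.10, as were KRT5, KRT14, KRT1, KRT10, KRT13 and KRT4.

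Of 23 markers of lung and other epithelial lineages, 1 was detected (4.3%, against 40.8% of all named genes). It was the tight junction protein claudin-7 (CLDN7) with 8.33, 8.36 and 7.91, close to the limit. Without replicate 3, 2 of the 23 were detected. E-cadherin (CDH1), the adhesion molecule of most epithelia, gave 4.15, 3.74 and 3.22, EPCAM gave 3.96, 4.24 and 3.69, and claudin-4 (CLDN4) gave 4.08, 3.66 and 4.12. These 3 surface proteins are commonly used to tell carcinoma from mesothelioma, and none came near the limit. The lung factors NKX2-1 and NAPSA and the surfactant proteins SFTPA2, SFTPB and SFTPC were also under it.

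Of 20 mesenchymal genes 11 were detected (55.0%, against 40.8% of all named genes). Vimentin (VIM) gave 15.74, 15.47 and 15.75, and N-cadherin (CDH2) gave 11.51, 11.33 and 11.22. Of the transcription factors that repress E-cadherin, SNAI2 gave 11.60, 11.18 and 11.69 and ZEB1 gave 11.55, 11.70 and 11.84, whereas SNAI1 was under the limit with 7.06, 5.91 and 5.99. The bHLH factor TWIST2 was detected with 10.67, 9.87 and 9.42, and TWIST1 passed on replicates 1 and 3 with 8.43, 7.79 and 8.60. TWIST2 and the myosin light chain MYL9 had the widest ranges of the detected members, 1.25 each. Fibronectin (FN1) passed on replicate 2 only, with 7.78, 9.22 and 7.77.

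Transcription factors of mesoderm and of the body cavity lining were detected for 8 of 22 measured members (36.4%, near the 40.8% of all named genes). They were GATA4, GATA6, TBX3, TBX5, NR2F1, MEIS2, FOXF1 and HOXB2. GATA4, a factor of heart and coelomic lining, gave 10.10, 9.42 and 9.31, and its relative GATA6 gave 10.17, 10.51 and 10.55. FOXF1, a forkhead factor of visceral mesoderm, had the widest range of the detected members, with 11.58, 10.82 and 11.85. TCF21 and GATA5, by contrast, stayed under the limit with highest signals of 5.82 and 5.34. Of 23 HOX genes, which mark position along the body axis, 6 were detected (26.1%, against 40.8% of all named genes). They were HOXB2, HOXB7, HOXB9, HOXC8, HOXC9 and HOXC13. The posterior genes HOXC10 to HOXC12 and HOXD9 to HOXD13 that were measured were under the limit.

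Markers of cells other than mesothelium were almost all under the limit. None of 22 leukocyte and none of 16 neuronal or neuroendocrine markers passed on any array, whereas 47.3% of all named genes passed on at least 1. Among the leukocyte markers, PTPRC (CD45) gave at most 4.08, and the highest signal of any member was 7.08, of CD79A. Of 17 endothelial and blood cell markers only EGFL7 was detected (5.9%, against 40.8% of all named genes). EGFL7, a secreted factor of endothelium that hosts a microRNA, gave 10.12, 9.62 and 10.16. PECAM1, CDH5, VWF and KDR were under the limit. Of 19 liver, muscle and adipose markers only skeletal actin (ACTA1) was detected (5.3%, against the same 40.8%), with 10.37, 10.37 and 10.46. Its transcript is close in sequence to those of other actins, so this signal is uncertain.

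Fibroblast markers passed for 3 of 18 (16.7%, against 40.8% of all named genes). The growth factor receptor PDGFRB gave 8.89, 9.22 and 8.34, THY1 gave 9.35, 8.55 and 8.25 and the collagen COL1A2 gave 8.84, 8.75 and 8.59. The defining stromal genes decorin (DCN), lumican (LUM) and PDGFRA were under the limit. Over the 7 fibroblast markers of the short marker panel, the log2 of the summed signal was 10.66, 10.47 and 9.82, lowest on replicate 3, and over the 7 leukocyte markers of the panel, all under the limit, it was 8.02, 7.95 and 7.91.

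**Figure D2:**
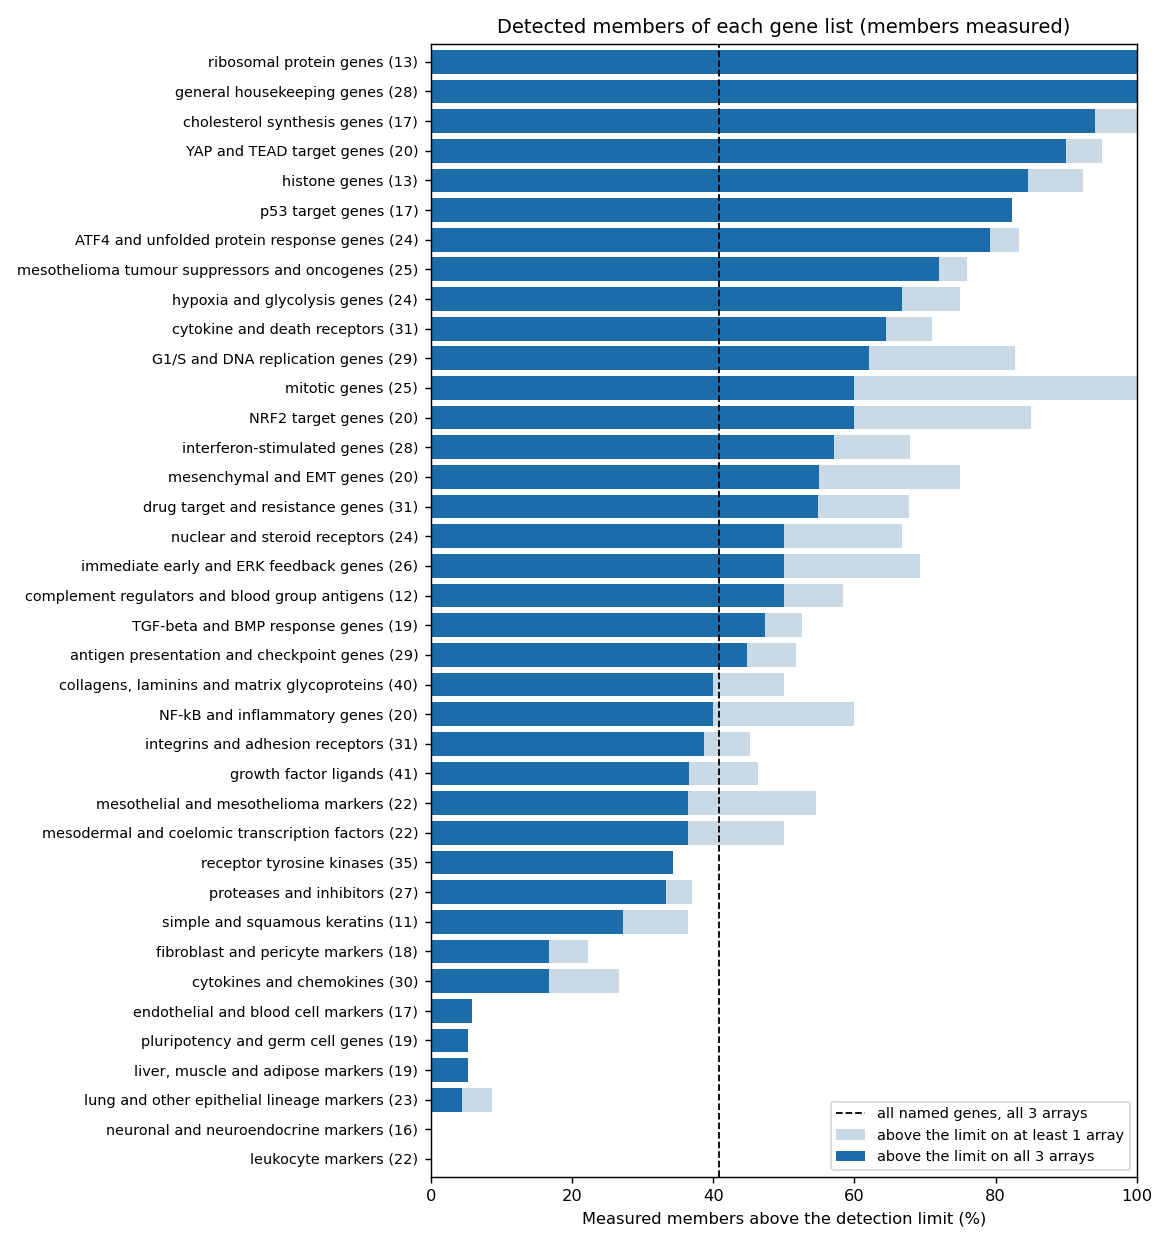
Share of measured members (horizontal axis, percent) that exceeded the detection limit on all 3 control arrays (dark bars) or on at least 1 (light bars) for each of 38 gene lists, with the number measured in brackets. The dashed line is the 40.8% of all named genes, and the leukocyte and neuronal lists are at 0.

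Among genes that mesothelioma often loses, the cell cycle inhibitors CDKN2A and CDKN2B were under the limit. CDKN2A gave 3.14, 3.16 and 3.01, and its neighbour CDKN2B gave 5.73, 5.76 and 5.73. MTAP, the methionine salvage enzyme next to them, was detected with 10.07, 10.14 and 10.64. NF2, which encodes the Hippo pathway protein merlin, gave 10.30, 11.03 and 10.57. The Hippo kinases LATS1 and LATS2, the adaptor SAV1 and the chromatin genes SETD2 and SETDB1 were detected as well. Of 25 measured members of this list 18 were detected (72.0%, against 40.8% of all named genes). An array signal does not tell an intact transcript from a mutant one.

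Growth-promoting members of the same list were detected. MYC gave 16.47, 15.37 and 15.89, CCND1 (cyclin D1) gave 13.09, 12.54 and 12.65, and CDK4 gave 15.07, 14.91 and 14.80. YAP1 gave 10.24, 10.54 and 10.46, while its relative WWTR1 (TAZ) passed on replicate 1 only, with 7.88, 6.71 and 7.67. The cell cycle inhibitor CDKN1A, a p53 target, gave 13.33, 11.85 and 11.76 and had the widest range of the list, 1.57. Of 17 p53 target genes 14 were detected (82.4%, against 40.8% of all named genes). Of 20 YAP and TEAD targets 18 were detected, beside the same 40.8%. Whether p53 or YAP was active in these cultures was not tested.

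Receptor tyrosine kinases were detected for 12 of 35 measured (34.3%, against 40.8% of all named genes). EGFR, the receptor for EGF, gave 11.84, 12.66 and 13.07, MET, the receptor for HGF, gave 14.56, 14.91 and 14.82, and AXL, the receptor for GAS6, gave 13.71, 13.97 and 13.23. EGFR differed most among the detected kinases, with a range of 1.22 and its lowest signal on replicate 1. ERBB4, PDGFRB, FGFR4, IGF1R, EPHA2, EPHB4, DDR1, DDR2 and ROR1 completed the detected set. ERBB3, KIT, FLT3, KDR, ALK, RET and ROS1 were among the 23 under the limit on every array.

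The list of secreted growth factors holds ligands of these kinases together with members of the TGF-beta, BMP, WNT and CCN families. Of 41 measured, 15 were detected (36.6%, near the 40.8% of all named genes). NRG1, which binds ERBB3 and ERBB4, gave 12.94, 12.82 and 12.05, whereas the EGFR ligands TGFA, EREG, HBEGF and EGF were under the limit. AREG, another EGFR ligand of the list, is not analysed here. HGF was under the limit with 3.17, 4.10 and 3.52, and GAS6 passed on replicate 3 only with 7.67, 7.33 and 8.22. The fibroblast growth factors FGF2 (15.37, 15.28 and 15.27) and FGF5 (12.77, 12.13 and 12.40) were detected, as were PDGFA, VEGFA, VEGFB, WNT5A, TGFB1 and the bone morphogenetic protein BMP4. BMP4 gave 15.70, 15.41 and 14.39, lowest on replicate 3. Its response genes ID1 and ID3, inhibitors of bHLH factors, were detected with 14.83, 15.27 and 14.18 and with 15.02, 14.97 and 14.32, and the inhibitory SMADs SMAD6 and SMAD7 were detected too.

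Of 30 cytokines and chemokines, 5 were detected (16.7%, against 40.8% of all named genes), namely IL1A, IL18, IL32, CSF1 and MIF. IL1A, an alarmin released by damaged cells, lay close to the limit with 8.50, 8.14 and 8.24. IL32 gave 13.55, 13.84 and 15.04 and had the widest range of the 5. The interleukins IL6 and IL11 and the neutrophil attractant CXCL8 were under the limit on all arrays, CXCL8 with 5.63, 5.80 and 5.08. CCL5, a chemokine for T cells, differed most between cultures, with 7.60, 10.26 and 12.59, so it was under the limit on replicate 1 and above it on the other 2 arrays.

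Of 31 receptors for cytokines and death ligands 20 were detected (64.5%, against 40.8% of all named genes). IL6ST, the shared receptor chain of the IL6 family, gave 12.22, 12.60 and 14.00, and OSMR, the oncostatin M receptor, gave 10.09, 10.81 and 11.83. Both were highest on replicate 3. The interferon receptor chains IFNAR1, IFNAR2, IFNGR1 and IFNGR2 were all detected, with ranges up to 0.49. Nuclear receptors were detected for 12 of 24 (50.0%), with the glucocorticoid receptor NR3C1 at 11.19, 11.44 and 11.12. The oestrogen receptors ESR1 and ESR2 and the progesterone receptor PGR were under the limit.

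The matrix genes detected, 16 of 40 (40.0%, near the 40.8% of all named genes), included laminin chains LAMA1, LAMA4, LAMB1 and LAMC1, the basement membrane proteoglycan HSPG2 and its partner nidogen NID1. LAMA1 gave 10.85, 11.87 and 13.48, a range of 2.63 and the widest of the list, and was highest on replicate 3. COL1A1 was under the limit with 7.42, 6.57 and 6.16 while COL1A2 passed, and COL4A1 was under it while COL4A2 passed with 9.06, 9.66 and 9.56. Thrombospondin-1 (THBS1) was lowest on replicate 3, with 10.14, 10.43 and 8.48. Integrins and adhesion receptors were detected for 12 of 31 (38.7%, also near the 40.8% of all named genes). Among them were the laminin-binding ITGA3, ITGA6 and ITGB4 and the shared chain ITGB1 with 14.21, 14.83 and 14.60. ITGA5, the fibronectin receptor chain, had the widest range of the detected members, with 8.78, 10.15 and 10.37.

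Proteases and their inhibitors were detected for 9 of 27 (33.3%, against 40.8% of all named genes). The inhibitors TIMP1 and TIMP3 and the cathepsins CTSB, CTSD and CTSL passed, whereas the matrix metalloproteinases MMP1, MMP2, MMP3, MMP7, MMP9, MMP10, MMP13, MMP14 and MMP15 did not. The urokinase PLAU and its receptor PLAUR stayed under the limit with highest signals of 7.27 and 7.55. SERPINE2, an inhibitor of thrombin and urokinase, had the widest range, with 8.63, 9.09 and 10.59.

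Most measured class I antigen presentation genes were detected and the class II genes were not. HLA-C gave 12.81, 13.27 and 13.30, HLA-E gave 11.95, 12.21 and 12.84, and their light chain B2M gave 14.97, 15.72 and 15.98. The peptide transporter chain TAP2 and the loading factor TAPBP were detected too. TAP1, the other transporter chain, passed on replicate 3 only with 7.36, 7.70 and 8.22, and NLRC5, the activator of class I genes, was under the limit. The class II genes HLA-DRA, HLA-DPA1, HLA-DQA1 and HLA-DMA, the invariant chain CD74 and their activator CIITA were all under the limit. HLA genes resemble each other in sequence, so their signals may be shared. CD274 (PD-L1) was under the limit with 6.18, 6.08 and 5.29, while CD276, NT5E (CD73), PVR, NECTIN2 and CD47 were detected. The complement inhibitors CD46, CD55 and CD59, which protect cells from lysis, were detected, CD55 with 16.84, 16.66 and 16.83.

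Interferon-stimulated genes were detected at baseline for 16 of 28 (57.1%, against 40.8% of all named genes). IFIT1, which binds foreign RNA ends, gave 10.07, 10.50 and 10.58, IFIT2 gave 11.11, 12.40 and 13.29, and IFIT3 gave 12.36, 12.48 and 13.02. OASL and SAMD9 were detected too, whereas MX1, MX2, OAS2, IRF7, USP18 and RSAD2 were under the limit. Of the 16 detected members, 11 were highest on replicate 3 and 9 lowest on replicate 1, against 35.4% and 34.1% of all detected genes. IFIT2 and the helicase-like DDX60, with 10.58, 11.62 and 12.68, had the widest ranges of the detected members. Interferon genes themselves were represented by IFNB1, which was under the limit with 3.98, 3.74 and 4.15.

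Among drug targets and resistance genes 17 of 31 were detected (54.8%, against 40.8% of all named genes). TYMS, the thymidylate synthase that pemetrexed inhibits, gave 13.24, 14.18 and 11.49, and FPGS, which retains antifolates in the cell, gave 12.81, 12.55 and 12.45. The folate receptor FOLR1 was under the limit and the folate carrier SLC19A1 was detected with 11.93, 11.35 and 11.77. ABCG2, a drug efflux pump, had the widest range of the detected members, 10.45, 12.43 and 13.28. The copper and cisplatin transporter SLC31A1 gave 13.20, 13.21 and 13.32, within 0.12 over the 3 cultures. ASS1, the arginine synthesis enzyme, was under the limit with 4.87, 4.96 and 5.26. PTGS1 and PTGS2, the cyclooxygenases that piroxicam inhibits, were also under it, PTGS2 with 3.76, 3.62 and 3.71.

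Several gene families outside these lists were looked at after their values had been seen. Of 10 pregnancy-specific glycoproteins, placental proteins of the CEA family, 8 were detected (80.0%, against 40.8% of all named genes). PSG5 gave 15.27, 14.28 and 13.95, PSG4 gave 13.49, 12.59 and 13.30, and PSG1 gave 12.62, 10.48 and 10.34. The placental alkaline phosphatases ALPP and ALPG were also detected, whereas ALPI and ALPL were not, and none of 12 chorionic gonadotropin and placental growth hormone genes passed on any array. Of 58 cancer-testis genes 1 was detected, MAGEB2, with 11.86, 11.88 and 11.21, and PRAME, from the list of pluripotency and germ cell genes, gave 10.39, 9.69 and 9.41. The other 18 members of that list, among them NANOG, LIN28A, LIN28B and SOX2, were under the limit. Members of the PSG, alkaline phosphatase, MAGE and metallothionein families are nearly identical in places, so a signal may be shared between neighbours.

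Housekeeping and ribosomal protein genes served as a check of the detection rule, and all 28 and all 13 measured members were detected. Ranges over the 3 cultures had a median of 0.62 for the housekeeping genes and 0.39 for the ribosomal protein genes. GAPDH, the glycolytic enzyme, gave 17.51, 17.70 and 17.58, and ACTB, cytoplasmic actin, gave 13.29, 13.67 and 12.36. SNRPD3, a spliceosome protein, had the widest range of the housekeeping list, 1.70. Of the 13 ribosomal protein genes 12 were highest on replicate 3, against 35.4% of all detected genes, where the list lay 0.32 above the mean of the other 2 arrays by its median.

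The 3 cultures carry 1 label, so the differences between them were described with no test. Over the 7225 detected genes the range had a median of 0.59 on the log2 scale (quartiles 0.37 and 0.90) and the SD a median of 0.31 (n = 3 arrays per gene). The range was at least 1 for 1431 genes (19.8%) and at least 2 for 140 (1.94%). Over genes above the limit on at least 1 array these counts were 1998 (23.9%) and 297 (3.55%). Between pairs of arrays, with detection required on both, 346 genes differed by at least 1 between replicates 1 and 2, 707 between 2 and 3 and 1036 between 1 and 3. The counts for a difference of at least 2 were 20, 91 and 119. Both counts were lowest for the pair without replicate 3.

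Genes in which 1 array lay at least 1 away from both others were counted next. Of the 7225 detected genes, replicate 3 was lower than both others for 252 (3.49%) and higher for 152 (2.1%). Replicate 1 was lower for 62 (0.858%) and higher for 101 (1.4%), and replicate 2 was lower for 23 (0.318%) and higher for 27 (0.374%). A gene that passes on some arrays only has to differ between them, so counts over a list are given for members detected on all 3 arrays unless stated.

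**Figure D3:**
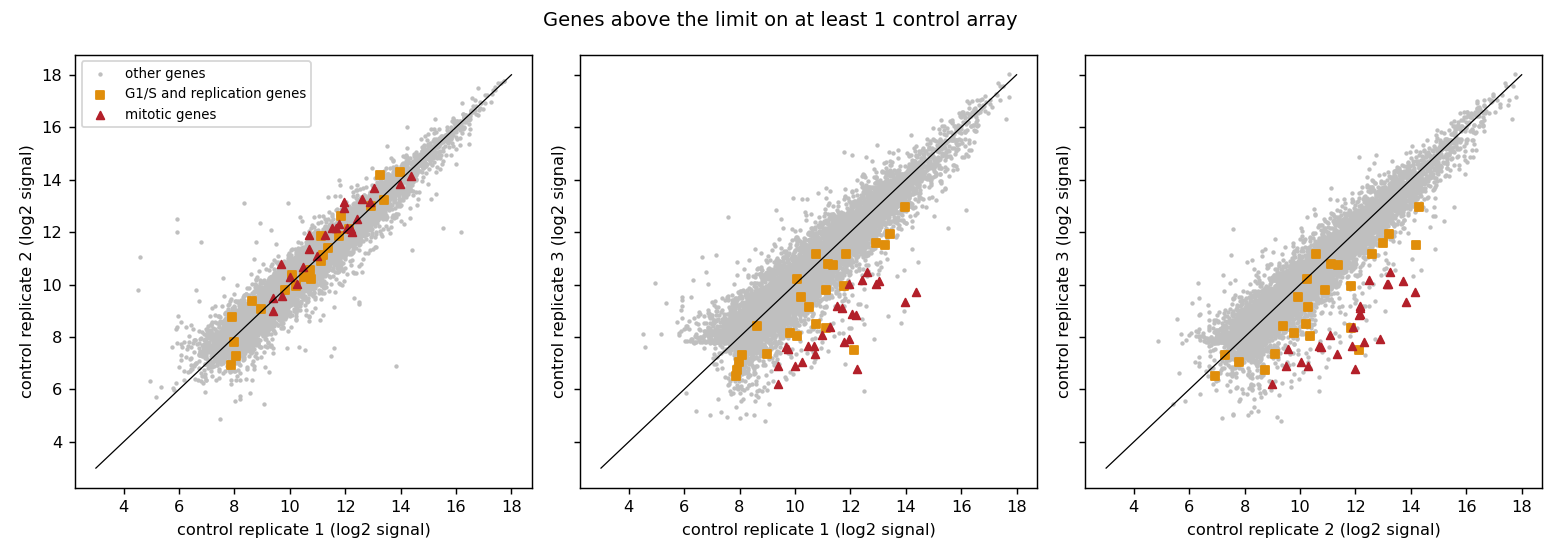
Log2 signal of the 8372 genes above the limit on at least 1 control array, for each pair of control arrays, with the line of equality. The 25 mitotic genes (triangles) lie along the line between replicates 1 and 2 and under it in both panels with replicate 3.

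Replicate 3 was low in genes of cell division. Of 25 mitotic genes measured, 15 were detected on all 3 arrays. All 15 were lowest on replicate 3 and at least 1 below both other arrays, against 3.49% of all detected genes. Their median deviation there was -3.21. The same held for all 25, against 4.71% of the 8372 genes above the limit on at least 1 array. The 10 that passed on replicates 1 and 2 only have to be lower on replicate 3. By the median of all 25, replicate 3 lay 3.08 below the mean of the other 2 arrays. All 25 were above the limit on replicates 1 and 2, and 15 on all 3, so 10 counted as not detected only through replicate 3. In bulk RNA, fewer dividing cells and less RNA of these genes per cell cannot be told apart.

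The widest range of all detected genes was that of DLGAP5, a spindle protein, with 11.95, 12.90 and 7.91. CDC20, an activator of the ubiquitin ligase that starts anaphase, gave 13.98, 13.84 and 9.32, and PLK1, a mitotic kinase, gave 14.37, 14.15 and 9.73. Replicates 1 and 2 differed by less than 1 for each of these genes. The kinase CDK1 gave 10.98, 11.09 and 8.07, and its cyclins CCNB1, CCNB2 and CCNA2 gave 12.91, 13.13 and 10.03, then 10.71, 11.88 and 7.66, then 13.04, 13.70 and 10.15. FOXM1, the transcription factor that drives many of these genes, gave 12.01, 12.06 and 8.34. PTTG1 (securin), DEPDC1, ANLN and NCAPG, further genes of chromosome segregation and cytokinesis, were also among the 15 widest ranges, each with its lowest signal on replicate 3.

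Many mitotic genes carry the short element TTTGAA, known as the CHR, near their start sites, where the DREAM complex and FOXM1-containing complexes bind. These letters were searched on both strands in the 250 bases before each RefSeq start site (GRCh38.p14). Of the 25 mitotic genes 21 had such a sequence, and 11 held the element (52.4%), against 14.2% of 14250 genes of the array. A match is a description of the letters and not a binding site. Over the copies in these 11 genes, the distance from the element to the start site ran from 8 to 189 bases. Windows of 30 bases are shown for 4 of the genes as examples of the element, with the element in capitals, each read 5′ to 3′ on the strand of its gene.
CDC20 (plus strand, chr1:43358904-43358933): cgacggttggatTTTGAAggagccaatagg
PLK1 (plus strand, chr16:23678848-23678877): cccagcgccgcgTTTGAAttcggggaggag
CCNB2 (plus strand, chr15:59105105-59105134): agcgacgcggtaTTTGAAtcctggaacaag
MKI67 (minus strand, chr10:128126435-128126464): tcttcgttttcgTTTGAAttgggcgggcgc
The element ended 24 bases before the start site in PLK1, CCNB2 and MKI67 and 60 bases before it in CDC20, which holds another copy 173 bases before the start. MKI67, which encodes the proliferation antigen Ki-67, gave 11.94, 13.16 and 10.02.

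DNA replication genes were lower on replicate 3 as well, by less. Of 18 detected members of the G1/S and replication list, 16 were lowest on replicate 3, against 40.6% of all detected genes, and 11 were at least 1 below both others (3.49%), with a median deviation of -1.24. RRM2, a subunit of ribonucleotide reductase, gave 11.13, 11.85 and 8.35, and thymidine kinase TK1 gave 12.12, 12.11 and 7.50. The helicase subunits MCM2 (10.23, 9.94 and 9.54) and MCM3 (11.18, 11.13 and 10.78) differed by less than 1 over the 3 cultures. The polymerase subunit POLA1 and SLBP, which binds histone messages, were not lowest there. Of 11 detected histone genes 10 were lowest on replicate 3, against 40.6% of all detected genes, for example H3C2 with 12.92, 13.16 and 10.81. Histone genes of a cluster are close in sequence, so these signals are not independent of each other.

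The placental alkaline phosphatases moved with the same array. ALPP gave 12.85, 12.70 and 7.92 and ALPG gave 13.93, 13.07 and 8.99, ranges of 4.93 and 4.94. The transcripts are near copies of each other and may share signal, so they count as 1 observation. NPPB, which encodes the natriuretic peptide BNP, gave 13.36, 12.12 and 8.80, and the galectin LGALS1 gave 13.95, 14.35 and 10.57. All 4 were lower on replicate 3 than on either other array by more than 3.

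Of the 152 detected genes at least 1 higher on replicate 3 than on both other arrays, the 8 farthest above were FBXO32, ABI3BP, IGFN1, ANKRD10, RRAGD, RAB27B, FST and FAM50A. FBXO32, a ubiquitin ligase subunit of muscle atrophy, gave 8.54, 8.75 and 11.36. ABI3BP, a matrix protein, gave 11.11, 11.10 and 13.67, and RRAGD, a GTPase that carries amino acid signals to mTOR, gave 8.17, 8.34 and 10.59. FST, the activin antagonist follistatin, gave 12.07, 12.75 and 14.92. For these 4 genes the values of replicates 1 and 2 differed by less than 1.

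**Figure D4:**
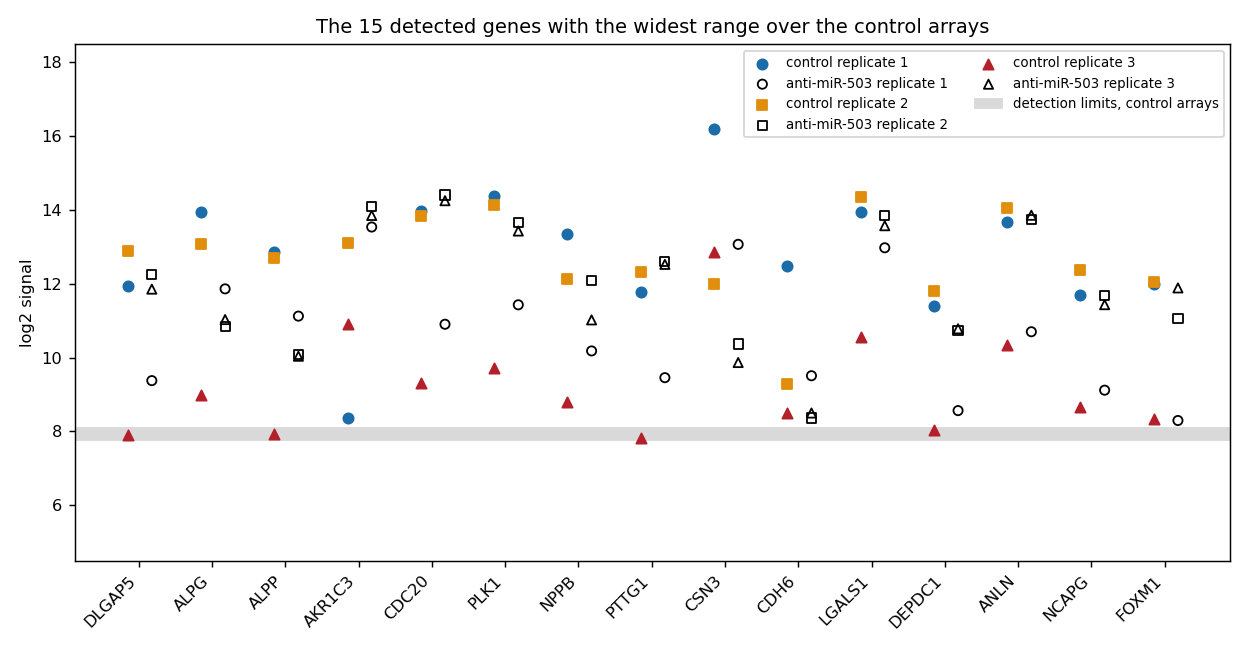
Log2 signal (vertical axis) of the 15 detected genes with the widest range over the control arrays (horizontal axis), with control arrays as filled and anti-miR-503 arrays as open symbols and the detection limits as a grey band. Replicate 3 is the lowest control array for 13 of the 15, and AKR1C3 and CSN3 are the exceptions.

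Replicate 1 was set apart by genes of the immediate early response, which cells switch on within minutes of a stimulus. Of 13 members of the immediate early and ERK feedback list detected on all 3 arrays, 9 were highest on replicate 1, against 32.4% of all detected genes, and 4 lay at least 1 above both other arrays, against 1.4%. The median deviation of these 13 was 0.84. EGR1, a zinc finger factor, gave 13.82, 6.89 and 8.53, the widest range of the list, and passed on replicates 1 and 3. FOS, a subunit of the factor AP-1, gave 8.57, 5.86 and 5.57 and passed on replicate 1 only. IER2 gave 12.33, 9.50 and 9.26, JUN gave 11.95, 10.14 and 10.36 and the phosphatase DUSP1 gave 15.27, 13.46 and 13.88. FOSL1, a slower member of the FOS family, did not share this pattern, with 13.05, 12.73 and 13.48.

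The promoter of EGR1 is known for CArG boxes, bound by serum response factor. Searched in the same 250 bases, the box was found in EGR1 alone of the 18 list members with a sequence, and in 1.64% of 14250 genes. Its 2 copies are shown because EGR1 had the widest range of the list, with the box in capitals, on the plus strand of chromosome 5.
EGR1 (chr5:138465364-138465393): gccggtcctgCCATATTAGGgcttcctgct
EGR1 (chr5:138465386-138465415): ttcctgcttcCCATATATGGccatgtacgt

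Other genes high on replicate 1 were CCN2, HES1, CDH6, CSN3 and FDCSP. CCN2, a secreted YAP target, gave 14.43, 11.33 and 10.84, and the NOTCH target HES1 gave 12.49, 9.33 and 9.81. CDH6, a cadherin of kidney and embryo, gave 12.48, 9.27 and 8.49. CSN3, kappa casein, gave 16.19, 11.99 and 12.86, and FDCSP, a small secreted protein, gave 15.53, 12.15 and 12.15. CCN2 was not joined by all YAP targets. CCN1 gave 14.38, 13.96 and 14.34, and ANKRD1 went the other way with 8.78, 11.61 and 11.19.

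Low on replicate 1 were CCND2, TXNIP and CCDC80 among others. CCND2 (cyclin D2) gave 9.93, 13.13 and 13.32. TXNIP, the glucose-responsive inhibitor of thioredoxin, gave 9.31, 12.07 and 12.85, and CCDC80, a secreted matrix protein, gave 11.77, 13.97 and 15.07. In each case the value of replicate 1 lay more than 2 below the next array. Of the 16 detected matrix genes 10 were lowest on replicate 1, against 34.1% of all detected genes, with a median deviation of -0.37 over the 16.

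Replicate 2 was set apart by NRF2 targets, genes of glutathione and aldehyde metabolism. Of 12 members detected on all 3 arrays, 11 were highest on replicate 2, against 32.1% of all detected genes, 4 of them by at least 1 (0.374%), and 9 were lowest on replicate 1 (34.1%). Their median deviation was 0.73 on replicate 2 and -0.65 on replicate 1. With the 5 members that passed on some arrays only, the medians were 1.09 and -0.84. NQO1, a quinone reductase, gave 14.24, 16.02 and 14.68, and the glutamate-cysteine ligase subunits GCLC and GCLM gave 10.77, 12.17 and 11.39 and 9.03, 10.79 and 8.95. AKR1C3, an aldo-keto reductase, gave 8.36, 13.11 and 10.92, a range of 4.76. Its neighbours AKR1C1 (6.79, 11.62 and 10.50) and AKR1C2 (4.52, 9.77 and 8.12) were under the limit on replicate 1 only, and their transcripts are close in sequence to AKR1C3. HMOX1, the haem oxygenase, was under the limit on all 3 arrays. TXNRD1, with 16.26, 16.52 and 16.19, differed by 0.32.

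NRF2 binds the antioxidant response element. With the letters TGACNNNGC, 4 of 16 list members with a sequence held it (25%), against 15.1% of 14250 genes. GCLM is shown because it was among the 8 genes farthest above on replicate 2, with the match, which lies on the opposite strand, in capitals.
GCLM (minus strand, chr1:93909445-93909474): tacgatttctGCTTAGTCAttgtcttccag

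Sterol synthesis genes were detected for 16 of 17 (94.1%, against 40.8% of all named genes). Of the 16, 13 were highest on replicate 2, against 32.1% of all detected genes. HMGCS1, an early enzyme of the mevalonate pathway, gave 11.75, 12.66 and 11.54, MVD gave 8.34, 8.86 and 7.88, and MSMO1 gave 13.52, 15.30 and 14.69. The 16 lay 0.76 above the mean of the other 2 arrays by their median, and none of them reached 1 above both. PMVK was the exception in the other direction, with 8.21, 6.62 and 6.70. The fatty acid desaturase FADS2 was also high on replicate 2, with 11.82, 13.36 and 11.66.

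Metallothioneins, small proteins that bind zinc and copper, followed another order. All 6 detected members were highest on replicate 1 and lowest on replicate 2, against 32.4% and 25.3% of all detected genes, and 3 of them were at least 1 below both others on replicate 2 (0.318%). MT2A gave 16.00, 14.60 and 15.51, and MT1X gave 14.13, 12.32 and 13.16. The members are near copies of each other and may share signal. Pregnancy-specific glycoproteins were also highest on replicate 1 in 6 of 8.

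**Figure D5:**
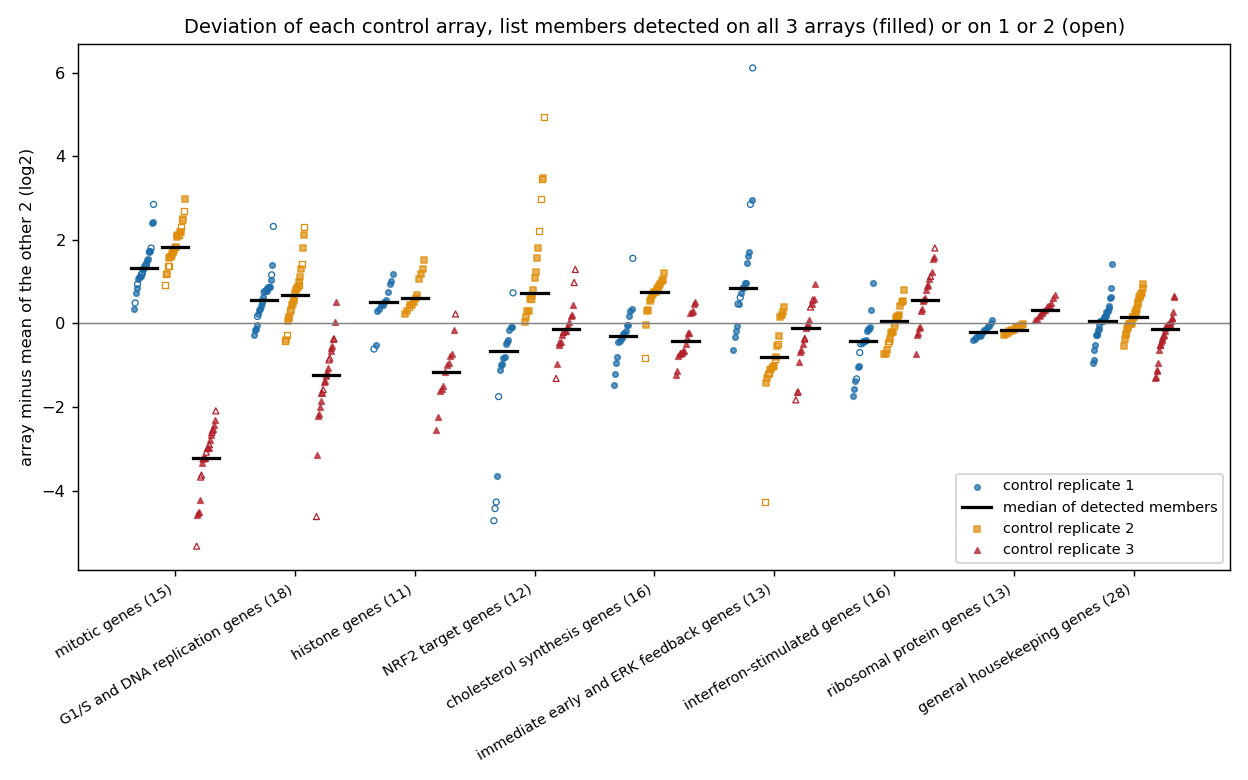
Deviation of each control array from the mean of the other 2 (vertical axis, log2) for the members of 9 lists above the limit on at least 1 array (filled points for those detected on all 3), with the median of the detected members as a black bar and their number in brackets. The mitotic list has medians of 1.33, 1.83 and -3.21, whereas the housekeeping list has 0.06, 0.15 and -0.14.

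The 16 detected interferon-stimulated genes had median deviations of -0.42, 0.06 and 0.56. The element known from interferon-stimulated genes, GAAANNGAAA, was searched in all measured members of the list, detected or not. Of the 22 with a sequence, 16 held it before the start site (72.7%), against 3.56% of 14250 genes. These 16 are not the 16 detected genes, since MX1 and RSAD2, both under the limit, are among them. IFI6, which also holds the element, was detected with a range of 1.13 but was highest on replicate 1, with 11.11, 9.98 and 10.31. Windows of DDX60 and SAMD9, detected on every array and differing by more than 1, follow as examples, with the element in capitals.
DDX60 (minus strand, chr4:168318786-168318815): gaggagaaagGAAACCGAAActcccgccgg
SAMD9 (minus strand, chr7:93118096-93118125): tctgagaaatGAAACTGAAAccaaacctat
SAMD9, which restricts viral translation, gave 13.42, 14.19 and 14.70. ATF4 and unfolded protein response genes, 19 of 24 detected, lay slightly lower on replicate 3 with a median deviation of -0.52 over the detected. Hypoxia and glycolysis genes, 16 of 24 detected, had median deviations of 0.15, 0.21 and -0.31. The shares detected in these last lists, 79.2% and 66.7%, stand beside 40.8% of all named genes.

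The same genes were looked at in the 3 anti-miR-503 cultures to see whether they varied there too. Over the 7225 detected genes the range within the anti-miR-503 group had a median of 0.59, and 177 genes had a range of at least 2. Of these, 51 were shared with the 140 of the control cultures, 36.4% of the control set and 28.8% of the anti-miR-503 set. Among the shared genes were mitotic genes, which were low on anti-miR-503 replicate 1. The median level of the 25 mitotic genes was 11.68, 12.12 and 8.07 on the control arrays and 9.23, 11.78 and 11.72 on anti-miR-503 replicates 1, 2 and 3. CDC20 gave 10.91, 14.41 and 14.25 on the latter and FOXM1 gave 8.30, 11.05 and 11.89. In each group as labelled, 1 of 3 cultures carried low signals of mitotic genes, and without control replicate 3 only 3 genes varied by at least 2 in both groups. The median of the immediate early list, by comparison, was 11.49, 9.86 and 9.86 on the control arrays and 9.75, 10.55 and 10.62 on the anti-miR-503 arrays, over the 18 members above the limit on at least 1 control array. The single genes did not follow 1 order there. EGR1 gave 8.29, 7.96 and 6.56 and IER2 gave 9.73, 10.40 and 9.43 on anti-miR-503 replicates 1, 2 and 3, all under control replicate 1, whereas DUSP1 (14.06, 15.44 and 15.08) and FOSL1 (12.61, 15.20 and 15.73) exceeded or neared it on replicates 2 and 3.

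Without control replicate 3, 7409 genes were detected on both remaining arrays. Of the list members measured, 410 were detected on replicates 1 and 2 against 390 on all 3 arrays, and 10 of the added genes were mitotic. Between replicates 1 and 2 alone, 346 of these 7409 genes differed by at least 1. Of list members above the limit on both, 7 of 13 immediate early genes and 6 of 13 NRF2 targets did so. The same held for 3 of 25 mitotic genes and none of 21 G1/S and replication genes. A difference of at least 2 was not seen for any mitotic gene between these arrays.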

How the data were processed

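RNA of 6 MSTO-211H cultures was measured on Clariom S arrays. The authors processed the arrays with the Transcriptome Analysis Console and deposited RMA log2 signals, that is background-corrected, quantile-normalized between arrays and summarized per transcript. RMA draws the 6 arrays to 1 distribution, so a shift of all genes between cultures would not show. No source names the annotation build. These log2 values, as deposited, were not normalized again. Precision is limited by the number of arrays. No 2 control arrays held identical values.

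Of 24351 rows, 2903 control rows were left out. Of 21448 transcript rows, 17709 had exactly 1 symbol in the platform annotation and 3739 did not. For 20 symbols with several rows the row with the highest control mean was kept. Promoter sequences came from RefSeq (GRCh38.p14). Several genes of the lists are not analysed here, and of 936 list symbols 828 were measured, 20 through a synonym.

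The study's methods give no analysis of the controls alone, so counts, ranges and deviations were computed with no test (Python 3.11.15, pandas 2.3.3, numpy 2.4.6). The steps were tested on simulated data with less noise than the real arrays and with changed genes far above the limit. Calls close to the limit were not covered by that check. The members, the 38 lists and the alternatives were chosen with earlier results of these data known. Another 9 gene families were chosen after values were seen. Named genes were, per list, the first 4 measured, the 2 detected with the widest range and, in identity lists with fewer than 6 detected, all detected. Over all genes they were the 15 widest ranges, the 8 farthest above and the 8 farthest below on each array, and the 3 on each side of the limit. Other genes were named after their values were seen. Alternatives were other percentiles (90th, 99th), fewer arrays, other scalings and leaving out each control array.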

Additional observations from a re-analysis of the deposited data

Results flagged for a closer look

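Outside the named genes, the array holds 3739 transcript rows without a single gene symbol in the platform annotation, and no result of the report uses them. Of the 3739 rows, 1000 exceeded the detection limit on all 3 control arrays (26.7%), against 40.8% of all named genes. Of the 612 negative control rows 12 did so, but the limit was set from those rows, so their share is no separate comparison. What the 3739 rows measure was not examined. Groups of 3 arrays are too small for an outlier test of single arrays.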

How the results depend on the processing

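No paired analysis was possible because the results come from no test between groups. Counts moved by more than 1.5 times under the following alternatives, and the cause was not tested beyond what each alternative leaves out. With the 99th percentile of the negative rows as the limit, which stood at 9.93 to 11.23 in place of 7.77 to 8.09, 2806 genes were detected in place of 7225, 471 had a range of at least 1 in place of 1431, 23 had a range of at least 2 in place of 140, and 199 list members were detected in place of 390. With the limit passed on at least 1 array, 297 genes had a range of at least 2, and 119 in place of 51 varied by at least 2 in both groups. Leaving out 1 control array gave 7339 to 7473 detected genes, 346 to 1036 with a range of at least 1, 20 to 119 with a range of at least 2, 397 to 410 list members and 3 to 47 genes that varied in both groups. The lowest counts of wide ranges were those without control replicate 3. Ranges over 2 arrays are smaller than over 3 by construction. With the 90th percentile, 8639 genes were detected. Centring on the array median and a second quantile normalization left 7225 and 7222 genes detected and 140 and 143 with a range of at least 2. Of 108 list medians, 21 lay at least 0.5 from the other arrays, and 14 to 23 did under the other settings. None of the called medians changed its sign. Signals close to the limit bound what can be called, and the choice of percentile decided the detected count more than the scaling did.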
